A study of Mus musculus with 10 samples.

Results

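Laminins are the large glycoproteins that form the first polymer of every basement membrane. The 9 chain genes Lama1, Lama2, Lama3, Lama4, Lama5, Lamb1, Lamb2, Lamb3 and Lamc1 were followed here in isolated glomeruli. They were chosen by family, as every probe set whose platform annotation names 1 of these genes alone, which gave 17 probe sets of 45101 on the array (64 controls included). Glomeruli are the filtering units of the kidney and were isolated after magnetic beads were perfused through the heart. There were 5 male mice that carried 1 Wt1 allele with the R394W change (Wt1 +/R394W) and 5 male wild-type littermates (Wt1 +/+). All 10 mice were 27 days old, unweaned, and on the FVB/N strain after 4 generations of backcrossing. WT1 is a zinc finger transcription factor that podocytes need, and R394W is a recurrent change of Denys-Drash syndrome, of which the mice are a model. By the study's design text the mutants leaked little albumin, and light microscopy found no lesions of the mesangium.

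A laminin is a trimer of 1 alpha, 1 beta and 1 gamma chain, cross-shaped in many of its forms. The alpha chain binds cell-surface receptors, and in trimers whose chains all have full short arms, these arms link trimers into a sheet. While the glomerulus forms, its basement membrane exchanges trimers with the alpha 1 or beta 1 chain for one of alpha 5, beta 2 and gamma 1 (laminin-521), made by podocytes and endothelial cells. Loss of the beta 2 chain causes Pierson syndrome, a congenital nephrotic syndrome. The alpha 1, alpha 2 and beta 1 chains stay in the mesangial matrix, alpha 4 is typical of endothelium, and the alpha 3 and beta 3 chains belong to the laminin of epithelial anchorage.

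Values are log2 expression values, and a change is the difference of the genotype means, mutant less wild type, on that scale, given with the SE (standard error) or 95% interval of limma (5 mice in each genotype). A call is an adjusted p under 0.05 over 45037 probe sets. Values of different probe sets are not comparable as amounts of RNA. Each array is a whole glomerular preparation, so fewer cells of a type and less RNA per cell cannot be told apart. Array medians ran from 6.31 to 6.39 and correlations between arrays from 0.985 to 0.997. All 6 podocyte, 6 endothelial and 6 mesangial or smooth muscle markers were measured, with marker means of 11.5 to 14.4, 11.0 to 13.8 and 8.57 to 13.8. Tubule RNA was present too. A tubule score, the mean of 16 proximal and distal tubule markers, spanned 6.79 to 9.05 in wild types and 7.11 to 9.86 in mutants. Wild type 5 and mutant 5 stood apart, with scores of 6.79 and 7.11 against at least 8.30 in every other mouse.

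Lama1, the alpha chain of the embryonic glomerular basement membrane, rose about 1.95-fold in mutant glomeruli, and it was the only laminin chain called. Across the 17 probe sets 1 was called higher and none lower, where 0.853% of all probe sets were called in either direction and 0.391% were called higher. The 17 changes had a median of -0.0059 against -0.0022 over all probe sets, and a median size of 0.091 against 0.075. With 1 probe set per gene, 1 of 9 chains was called, where 1.26% of 18193 genes were, and 0.566% were called higher.

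Lama1 (1418153_at, chromosome 17, its only single-gene probe set) read 5.15, 5.94, 5.39, 5.42 and 5.61 in wild types 1 to 5. In mutants 1 to 5 it read 6.39, 6.28, 6.01, 6.94 and 6.73. Every mutant lay above every wild type, but by a gap of only 0.064 between mutant 3 and wild type 2. Genotypes were likewise separate in 2.78% of all probe sets, and with mutants above in 1.30%. The means were 5.51 ± 0.29 (SD, n = 5) and 6.47 ± 0.37 (SD, n = 5), a rise of 0.96 ± 0.18 (SE, 95% interval 0.56 to 1.37, limma adjusted p = 0.0362). For Lama1 alone, the exact permutation test over mice (two-sided) gave p = 0.00794, its smallest possible value with 252 arrangements. Full separation of the genotypes fixes that value, so it restates the separation above and is no further evidence. The mean over all 10 mice of 5.99 lay under the median of 6.36 over the means of all probe sets, while mutants 1, 4 and 5 lay above it.

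The rise of Lama1 kept its direction in each of 21 alternative fits, at 0.82 to 1.08, and its call held in 10 and was lost in 11. With 1 mouse left out the call held without wild type 2 or mutant 3 and was lost without any other mouse, with adjusted p from 0.0253 to 0.106 over the 10 fits. Array weights ended the call as well (adjusted p = 0.0526), as did a fit of only wild types 2 to 4 and mutants 1 to 4, the 7 mice whose animal numbers in the labels lie close together (0.365), and one without wild type 5 and mutant 5 (0.143). Fits with fewer mice called fewer probe sets over the whole array. The main fit called 384, array weights 392, the 7 mice 110, and the fit without wild type 5 and mutant 5 240. With 1 mouse left out, 216 to 301 were called.

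Marker lists of 8 cell types were measured beside this rise. The mean of 6 mesangial and smooth muscle markers was 11.14 to 11.45 in wild types and 11.36 to 11.89 in mutants, with no marker called. Its 2 largest changes were those of the contractile genes Acta2 (0.89 ± 0.27 SE, adjusted p = 0.243) and Tagln (0.77 ± 0.28 SE, adjusted p = 0.369), while the other 4 went both ways, with Myh11 at 0.13, Itga8 at 0.12, Pdgfrb at -0.12 and Des at -0.15. The mean of 6 podocyte markers was 13.1205 to 13.2082 in wild types and 12.7783 to 13.1178 in mutants, narrowly without overlap. Of these only Plce1, a phospholipase C of podocytes, was called (-0.74 ± 0.11 SE, adjusted p = 0.0086), and the other 5 changed by -0.24 (Synpo) to -0.0085 (Podxl). Among 4 leukocyte markers Csf1r, the receptor of macrophage growth factor, was called lower (-0.99 ± 0.17 SE, adjusted p = 0.0220). The others were not called and went both ways, with Cd68 at 0.14, Cd3e at -0.056 and Ptprc at -0.13. The leukocyte list means were 7.08 to 7.99 in wild types and 6.78 to 7.56 in mutants. No marker of the remaining lists was called. Their means in wild types and mutants were 12.55 to 12.69 and 12.38 to 12.73 for endothelium, 8.85 to 9.23 and 8.84 to 9.27 for parietal epithelium, and 7.69 to 8.69 and 7.03 to 7.75 for the 2 measured erythroid markers of 3 listed. The parietal markers went both ways. Ncam1 (-0.48 ± 0.11 SE, adjusted p = 0.0944) and Dkk3 (-0.41 ± 0.089 SE, adjusted p = 0.0658) were lower with no overlap of genotypes, as in 3.67% of all genes. Cldn1 (0.68 ± 0.38 SE, adjusted p = 0.649) and Akap12 (0.20 ± 0.10 SE, adjusted p = 0.603) were higher, with overlap. The part of these cell types in the Lama1 result was not tested. Lama1 followed the tubule score little over the 10 mice (Pearson r = 0.081, permutation p = 0.821, Spearman rho = 0.16, permutation p = 0.657, adjusted p over 17 probe sets 0.931 and 0.857). Without wild type 5 and mutant 5 its r was 0.52. With the tubule score as a covariate the Lama1 change was 0.99 and remained called (adjusted p = 0.0404).

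**Figure D1:**
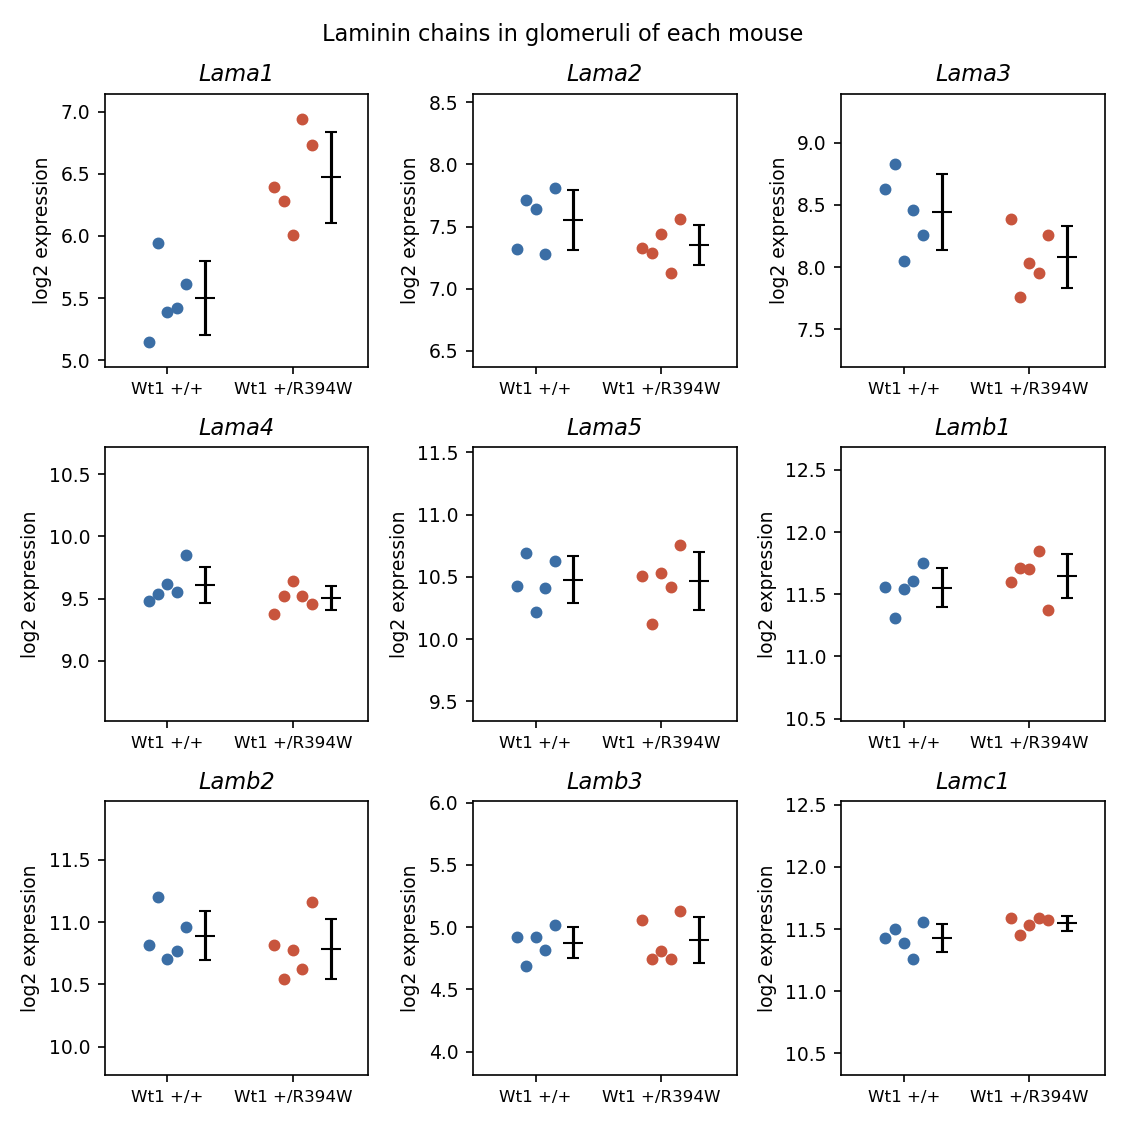
Log2 expression (vertical axes, each spanning the same range of log2 units) of the 9 laminin chains, by each gene's brightest probe set. Each point is a mouse, 5 Wt1 +/+ in blue and 5 Wt1 +/R394W in red, and the black bar is the mean with its SD. In Lama1 the mutants (6.01 to 6.94) lie above the wild types (5.15 to 5.94), and in the other 8 chains the genotypes overlap.

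The 3 chains of the mature glomerular laminin did not pass the test, and each is given with its interval. Lama5, the alpha 5 chain (1427009_at, chromosome 2), read 10.43, 10.69, 10.22, 10.41 and 10.63 in wild types and 10.51, 10.12, 10.53, 10.42 and 10.76 in mutants. Its change was -0.0098 ± 0.12 (SE), with a 95% interval of -0.27 to 0.26. A second probe set, 1427010_s_at, changed by -0.041 ± 0.12 (SE), and 1459614_at, with a low mean of 4.43, by 0.012 ± 0.11 (SE).

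Lamb2, the beta 2 chain (1416513_at, chromosome 9), read 10.82, 11.20, 10.70, 10.77 and 10.96 in wild types and 10.82, 10.54, 10.78, 10.62 and 11.16 in mutants. The genotypes overlapped, with a high mouse in each, wild type 2 and mutant 5. The change was -0.11 ± 0.13 (SE, 95% interval -0.38 to 0.17, adjusted p = 0.854). As a ratio of mutant to wild type the interval ran from 0.768 to 1.12. Single mice moved the change, to -0.028 without wild type 2, -0.045 without mutant 2, -0.064 without mutant 4 and -0.20 without mutant 5, and it was -0.048 with the tubule score as a covariate. Lamc1, the gamma 1 chain that nearly all laminins of the kidney share (1423885_at, chromosome 1), read 11.43, 11.50, 11.39, 11.26 and 11.56 in wild types and 11.59, 11.45, 11.53, 11.59 and 11.57 in mutants. It changed by 0.11 ± 0.067 (SE, 95% interval -0.032 to 0.26, adjusted p = 0.665). Its other probe set, 1423886_at, did not follow it over the mice (Pearson r = -0.29, a description over 10 mice) and changed by 0.044 ± 0.094 (SE).

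The chain that Lamb2 replaces in development did not pass either. Lamb1 (1424114_s_at, chromosome 12) read 11.56, 11.31, 11.54, 11.61 and 11.75 in wild types and 11.60, 11.71, 11.70, 11.85 and 11.37 in mutants, a change of 0.091 ± 0.10 (SE, 95% interval -0.13 to 0.31, adjusted p = 0.843). Its other 3 probe sets changed by 0.17 ± 0.15 (SE, 1451241_at), 0.13 ± 0.10 (SE, 1424113_at) and -0.0077 ± 0.066 (SE, 1446180_at). The first 3 of these 4 probe sets went together over the mice (r = 0.61 to 0.85 by pair), and 1446180_at, with a mean of 5.59, followed none of them (r = -0.025 to 0.020).

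Within an array, the difference between 2 chains is free of what shifts both alike. The Lamb1 minus Lamb2 difference was 0.74, 0.11, 0.83, 0.84 and 0.79 in wild types and 0.78, 1.17, 0.92, 1.23 and 0.21 in mutants. The genotypes overlapped, with means of 0.67 ± 0.31 (SD, n = 5) and 0.86 ± 0.41 (SD, n = 5), and 1 mouse of each genotype, wild type 2 and mutant 5, was low. Without wild type 2 the gap between the means of 0.20 was 0.058, without mutant 2 it was 0.12, without mutant 4 it was 0.10, and without mutant 5 it was 0.36. With the tubule score as a covariate it was 0.12. Lama1 minus Lama5 separated the genotypes, with wild types at -5.28 to -4.75 and mutants at -4.52 to -3.47, with a gap of 0.97 between means. That gap comes from Lama1, since Lama5 differed by only -0.0098. These differences are given as values with no test.

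Among the other alpha chains, Lama3 had the next largest change. Its probe set 1427512_a_at read 8.63, 8.83, 8.05, 8.46 and 8.26 in wild types and 8.39, 7.76, 8.03, 7.95 and 8.26 in mutants. The mutant mean was lower by a change of -0.37 ± 0.16 (SE, 95% interval -0.71 to -0.029), with an unadjusted p of 0.0358 and a limma adjusted p of 0.484. An unadjusted p under 0.05 was reached by 9.36% of all probe sets. Its second probe set, 1444860_at with a mean of 5.23, changed by -0.0059 ± 0.10 (SE), so the 2 probe sets of Lama3 did not show the same difference.

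Lama2, the alpha chain of muscle and mesangial matrix (1426285_at, chromosome 10), read 7.32, 7.71, 7.64, 7.28 and 7.81 in wild types and 7.33, 7.29, 7.44, 7.13 and 7.56 in mutants. Its change was -0.20 ± 0.12 (SE, adjusted p = 0.665). Lama4, the endothelial alpha chain (1424807_at, chromosome 10), changed by -0.11 ± 0.080 (SE, 95% interval -0.28 to 0.069), and its second probe set, 1424808_at, by -0.023 ± 0.17 (SE). Lamb3 (1417812_a_at, chromosome 1) stayed between 4.69 and 5.13 in all 10 mice, near the lower end of the scale, and changed by 0.021 ± 0.095 (SE). Over the 16 probe sets other than that of Lama1, none was called and 1 had an unadjusted p under 0.05.

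**Figure D2:**
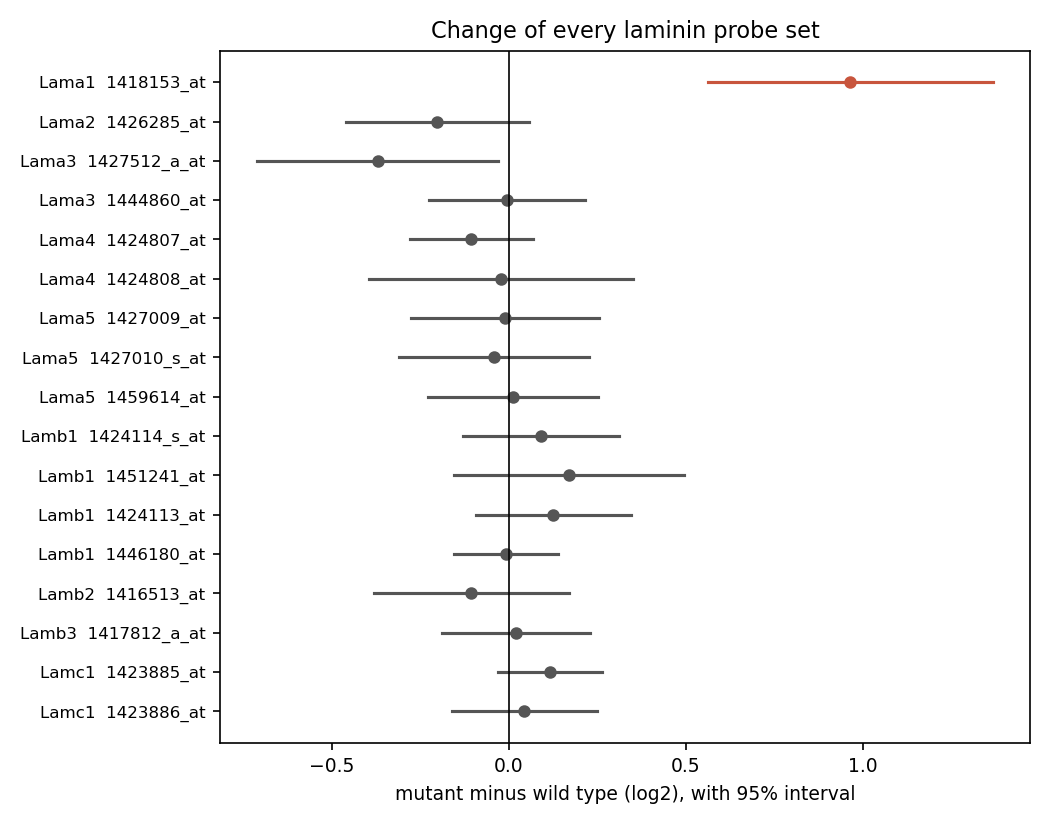
Change (mutant minus wild type, log2, horizontal axis) of each of the 17 laminin probe sets with its 95% interval from limma, 5 mice per genotype. The called probe set, Lama1, is in red at 0.96 (0.56 to 1.37), and the other 16 changes, in grey, lie between -0.37 and 0.17.

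Although their genotype means hardly differed, Lama5 and Lamb2, partners in the same trimer, varied together from mouse to mouse. Over the 10 mice Pearson's r was 0.89 (permutation p = 0.00098) and Spearman's rho 0.92 (permutation p = 0.00059). These gave adjusted p-values of 0.0353 and 0.0212 over all 36 pairs of the 9 chains, and no other pair passed by either measure. The correlation was 0.91 within wild types and 0.92 within mutants, 0.80 without the 2 mice farthest from the median of Lama5, and 0.81 after the tubule score was regressed out of both. Lamb2 also went with Lama3, outside that trimer (r = 0.70, permutation p = 0.0244, adjusted 0.219). For Lama3 and Lamb2, r was 0.82 after the tubule score was regressed out and 0.32 without the 2 mice farthest from the median of Lama3. Of 18192 other genes, 28 (0.154%) followed Lama5 at least as closely. Lamc1, which completes that trimer, followed Lama5 less closely (r = 0.50, permutation p = 0.145, rho = 0.52, permutation p = 0.134), and the difference between the 2 correlations was not tested. Lama1 and Lamc1 had r = 0.69 (permutation p = 0.0238, adjusted 0.219) and rho = 0.81 (permutation p = 0.00718, adjusted 0.129), which did not pass. By deviations from the genotype mean, r of Lama1 and Lamc1 was 0.47.

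Lamb1 and Lamb2, the chains that compete for the same place in a trimer, had values running in opposite directions, which did not pass the adjustment. Pearson's r was -0.77 (permutation p = 0.010, adjusted 0.180) and Spearman's rho -0.58 (permutation p = 0.0877, adjusted 0.451), and r was -0.56 without the 2 mice farthest from the median of Lamb1. All such pairs share the array, the RNA preparation and the make-up of the preparation.

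The upstream sequences of these 3 genes are shown because Lama5 and Lamb2 varied together and Lamb1 did not go with them. They are the 250 bases before the start of each gene in RefSeq (GRCm38.p6), 5′ to 3′ on the strand of the gene: Lama5 at chr2:180225860-180226109 (minus strand), Lamb2 at chr9:108479612-108479861 (plus strand) and Lamb1 at chr12:31265043-31265292 (plus strand). RefSeq windows matched 5 of the 9 chains by symbol (Lama2, Lama5, Lamb1, Lamb2 and Lamb3, in 6 windows). Capitals mark matches, on either strand, to 3 spellings of sites bound by zinc fingers of the WT1 and EGR family: GCGTGGG, GCGGGGGCG and GNGTGGGNG, in which N is any base. GCGTGGG can lie within GNGTGGGNG.
Lama5: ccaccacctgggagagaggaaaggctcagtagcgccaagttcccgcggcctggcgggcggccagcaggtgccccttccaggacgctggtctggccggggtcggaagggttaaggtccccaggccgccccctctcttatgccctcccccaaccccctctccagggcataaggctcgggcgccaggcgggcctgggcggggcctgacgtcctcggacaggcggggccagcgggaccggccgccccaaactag
Lamb2: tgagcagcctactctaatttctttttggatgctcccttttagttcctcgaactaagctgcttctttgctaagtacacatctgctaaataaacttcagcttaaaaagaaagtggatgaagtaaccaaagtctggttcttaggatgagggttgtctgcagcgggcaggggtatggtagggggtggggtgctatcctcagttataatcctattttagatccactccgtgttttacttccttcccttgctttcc
Lamb1: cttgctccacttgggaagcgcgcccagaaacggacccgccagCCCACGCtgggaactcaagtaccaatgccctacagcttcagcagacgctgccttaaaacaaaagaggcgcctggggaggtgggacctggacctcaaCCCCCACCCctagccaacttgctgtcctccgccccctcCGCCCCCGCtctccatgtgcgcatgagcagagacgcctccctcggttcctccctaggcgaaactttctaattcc
Lamb1 held 1 match to each spelling, starting 208, 74 and 112 bases before the gene in that order, all on the reverse strand. Lama5 and Lamb2 held none, and of the other windows 1 of Lamb3 held a single match to GNGTGGGNG. Over 32851 windows of the same length, 4.30%, 2.57% and 12.7% held a match to the 3 spellings. GC content was 72.4% for Lama5, 43.6% for Lamb2 and 62.0% for Lamb1. A match is a description of letters, and binding was not measured in these mice.

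The 17 probe sets were also set against the tubule score. Lama2 was lowest where tubule markers were highest, with Pearson r = -0.81 (permutation p = 0.00312, adjusted 0.0530 over 17 probe sets) and Spearman rho = -0.85 (permutation p = 0.00280, adjusted 0.0476). Without wild type 5 and mutant 5, r was -0.84 over 8 mice (exact permutation p = 0.00955, adjusted 0.143, which does not pass), and it was -0.78 within wild types and -0.93 within mutants. Correlations over 5 mice were as large in some other probe sets, without a shared sign. Lamc1 1423886_at had 0.85 within wild types and -0.98 within mutants, and Lama4 1424807_at had -0.90 and 0.044. Lamb2 had r = -0.70 (permutation p = 0.0253, adjusted 0.215) and rho = -0.59 (permutation p = 0.0792, adjusted 0.434), and without the same 2 mice r = -0.65 (exact permutation p = 0.0905). Over the 10 mice Lama2 was the only probe set with an unadjusted p under 0.05 by both measures. Without the same 2 mice, 3 probe sets had positive r with an unadjusted exact permutation p under 0.05, each adjusted to 0.143: Lamb1 1424114_s_at (0.78), Lamb1 1424113_at (0.75) and Lama3 1444860_at (0.73). Differences between chains in this relation were not tested.

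**Figure D3:**
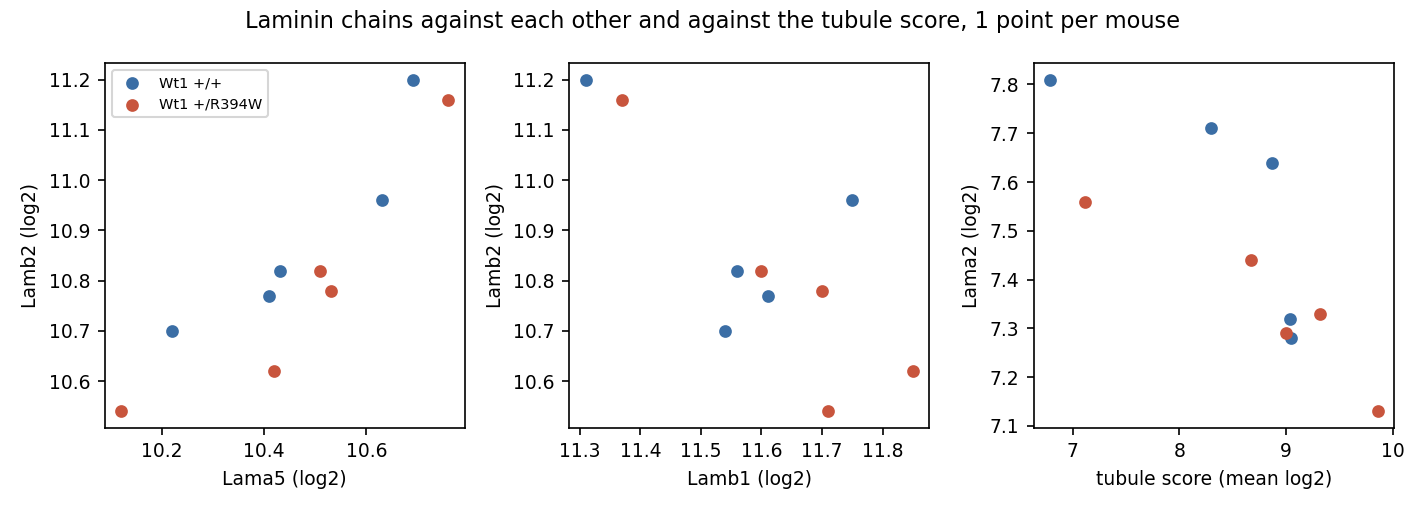
Each point is a mouse, Wt1 +/+ in blue and Wt1 +/R394W in red, and all axes are log2 values. Left, Lamb2 against Lama5 (r = 0.89), centre, Lamb2 against Lamb1 (r = -0.77), and right, Lama2 against the tubule score, the mean of 16 tubule markers (r = -0.81), where wild type 5 and mutant 5 are the 2 points at the left.

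The receptors and partners of laminins were read from lists fixed by name. Of 36 listed genes 31 are described, and the other 5 were not analysed here. None of the 31 was called by limma, against 1.26% of all genes, while 7 had an unadjusted p under 0.05 (3 higher, 4 lower), against 11.0% of all genes. Their median change was -0.021, against 0.0043 over all genes.

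Of 10 laminin receptors, Bcam came nearest to a call. It encodes the Lutheran glycoprotein, a receptor for the alpha 5 chain. Its probe set 1424791_a_at (chromosome 7) read 11.66, 11.66, 11.40, 11.56 and 11.45 in wild types and 11.08, 10.90, 11.11, 10.96 and 11.39 in mutants. The genotypes did not overlap, although mutant 5 at 11.39 lay next to wild type 3 at 11.40, and 3.67% of all genes likewise had no overlap. The change was -0.46 ± 0.096 (SE, 95% interval -0.67 to -0.25, adjusted p = 0.0577). Bcam was called in 8 of 21 alternative fits, among them those with a variance trend (adjusted p = 0.0406) with array weights (0.0255) and without mutant 5 (0.0137), and not in the others, with adjusted p from 0.0137 to 0.157 over all of them. The part of podocyte content in the Bcam values was not tested.

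The alpha subunit of the main podocyte laminin receptor, Itga3 (1455158_at, chromosome 11), changed by -0.37 ± 0.12 (SE, adjusted p = 0.285), and its other 2 probe sets by -0.36 ± 0.13 (SE, 1421997_s_at) and -0.23 ± 0.15 (SE, 1460305_at). Its partner Itgb1, the beta subunit of most laminin-binding integrins (1452545_a_at, chromosome 8), changed by 0.16 ± 0.069 (SE, adjusted p = 0.510). Its genotypes did not overlap, but by a gap of only 0.0085. A second Itgb1 probe set, 1426918_at, changed by 0.26 ± 0.073 (SE, adjusted p = 0.193), also with no overlap, by a gap of 0.088. Genotypes were likewise separate in 2.78% of all probe sets. In the other 4 probe sets of Itgb1 the genotypes overlapped, with changes of 0.072 (1427771_x_at), 0.057 (1426920_x_at), 0.086 (1426919_at) and -0.067 (1438119_at). Itga2 changed by 0.30 ± 0.16 (SE, adjusted p = 0.607).

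Of 13 basement membrane partners, Agrn, a heparan sulfate proteoglycan that binds laminins, had the smallest p. It changed by -0.21 ± 0.057 (SE, adjusted p = 0.178), with wild types at 12.13 to 12.25 and mutants at 11.91 to 12.11. Genotypes likewise did not overlap in 3.67% of all genes. A second Agrn probe set, 1443980_at, changed by -0.13 ± 0.24 (SE). Nid1 and Nid2, the nidogens that tie laminin gamma 1 to collagen IV, changed by 0.23 ± 0.085 (SE, adjusted p = 0.390) and 0.21 ± 0.090 (SE, adjusted p = 0.495). Another Nid1 probe set, 1448469_at, changed by 0.26 ± 0.070 (SE, adjusted p = 0.178). Its mutants lay above its wild types by a gap of 0.040, and 2.78% of all probe sets likewise had no overlap. The genotypes overlapped in the brightest Nid1 probe set and in 1441519_at, which changed by 0.0049 ± 0.24 (SE). Col4a4, a chain of the mature glomerular collagen IV, changed by -0.16 ± 0.085 (SE, adjusted p = 0.606), and its other probe sets by -0.084 (1440250_at) and -0.022 (1425772_at). In the list of further laminin family and netrin genes, Ntn4, a netrin that binds laminin short arms, changed by -0.24 ± 0.092 (SE, adjusted p = 0.410), Ntn1 by 0.25 ± 0.11 (SE, adjusted p = 0.540) and the gamma 3 chain gene Lamc3 by -0.094 ± 0.13 (SE, adjusted p = 0.878). Their second probe sets changed by -0.080 (Ntn4, 1450512_at), 0.041 (Ntn1, 1422987_at, low signal) and -0.076 (Lamc3, 1451758_at). The 5 measured genes of dystroglycan glycosylation, which build the sugar chain that laminins bind, had the narrowest spread of changes, from -0.026 for B4gat1 to 0.076 for Rxylt1, with Pomt1 at -0.021 and Pomgnt1 at 0.0098.

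**Figure D4:**
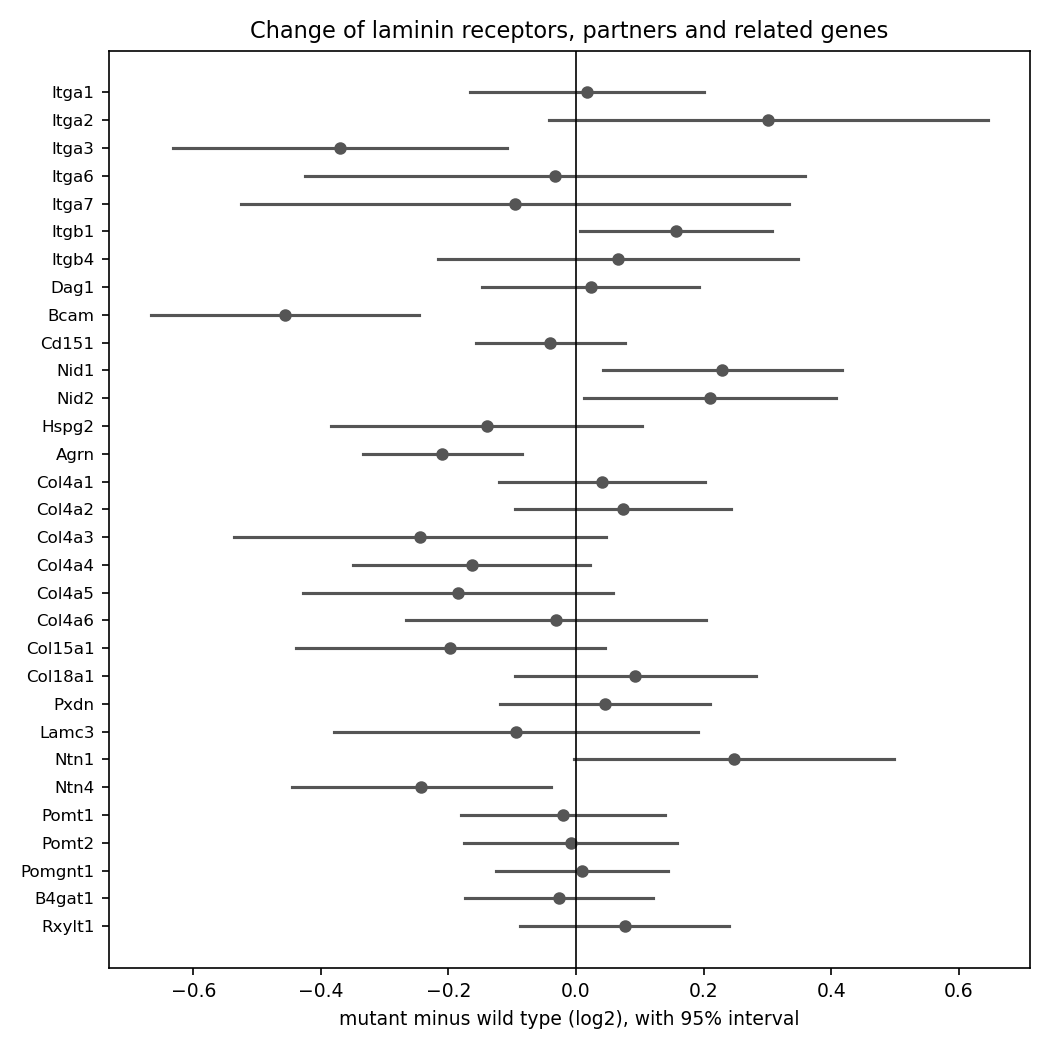
Change (mutant minus wild type, log2, horizontal axis) of 31 laminin receptors, basement membrane partners, related family genes and dystroglycan glycosylation genes, by each gene's brightest probe set, with 95% intervals from limma and 5 mice per genotype. No gene was called, and Bcam at -0.46 and Itga3 at -0.37 lie farthest below 0.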

How the data were processed

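Total RNA of glomeruli from 10 mice was labelled with biotin and hybridised to 1 array per mouse, per the labels. The log2 expression values deposited by the authors are RMA values per the submitters' processing notes, with version and settings not given in the sources used here. Quantile normalization within RMA makes arrays alike, and low signals are compressed. Scanner files were not used here. Columns were tied to mice by the labels. Mice are numbered here by accession, so the numbers pair no mice. The wild types are littermates of mutants, but which mouse shares a litter with which is not given. One alternative kept the 7 mice with close animal numbers. Processing days are not given either, so no block was fitted.

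Genes came from the platform annotation (34945 single-gene probe sets, 932 with several genes, 9160 with none listed) and chromosomes from the RefSeq table of GRCm38.p6. A gene with several probe sets is shown by the brightest on average, and means under 5 were called low signal. limma (version 3.58.1, R version 4.3.3) compared genotypes with no covariates, two-sided, with Benjamini-Hochberg adjustment over 45037 probe sets, 64 controls left out. The fit was tested on simulated data. Correlations used 100000 permutations (exact where 8 mice were left). Figures were drawn with matplotlib (version 3.10.9).

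All 9 chains and all their probe sets are named, and of each companion list the called genes and the 4 with the smallest p. Members and lists were chosen with earlier results of these data known. Correlations between chains, single-mouse omissions for chain differences and the omission of both low-tubule mice were added after the values were seen.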

Additional observations from a re-analysis of the deposited data

Results flagged for a closer look

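In 86 groups of 5 mice (member probe sets, chain differences, marker lists and named companions), 5 held a mouse whose gap to the nearest other exceeded 0.71 of the range of its group, and chance alone gives about 1 in 20. Mutant 1 read 6.05 in Lama4 (1424808_at), where the other mutants read 6.62 to 6.76. Mutant 5 read 8.51 in Lamc1 (1423886_at), above the others at 8.06 to 8.18. Wild type 2 had a Lamb1 minus Lamb2 difference of 0.11, against 0.74 to 0.84. Mutant 5 had a mean of 7.08 over the distal tubule and collecting duct markers, against 8.75 to 9.34, and read 9.77 in Pomgnt1 (1426618_a_at), against 9.63 to 9.64.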

How the results depend on the processing

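No paired analysis was possible because the labels give no replicate numbers that both genotypes share and do not say which mice share a litter. The Lama1 change was 0.89 with array weights, 0.82 with wild types 2 to 4 and mutants 1 to 4 (close animal numbers) and 0.93 without wild type 5 and mutant 5 (chosen after seeing the data), and its call was lost in all 3. With each mouse left out it was 0.85 to 1.08. So the count of called members fell from 1 to 0 in these settings, and also at an adjusted p under 0.01 and with a filter at a mean of 6, which removes Lama1 (mean 5.99). Leaving out 1 mouse at a time gave 0 to 1 called members. The count of called companions rose from 0 to 1 (Bcam) with quantile normalization, the filter at 6, both variance trends, array weights, gene means and without both low-tubule mice, and was 0 to 1 with 1 mouse left out. None of the other 16 probe sets was called in any of 334 alternative values (lowest adjusted p 0.281), 37 of which changed sign. Apart from single-mouse omissions these were Lama3 1444860_at (0.0062 with quantile normalization, 0.0075 with the tubule covariate, 0.10 with wild types 2 to 4 and mutants 1 to 4, 0.074 without both low-tubule mice), Lama4 1424808_at (0.030, array weights), Lama5 1427009_at (0.042, tubule covariate), Lama5 1459614_at (-0.047, array weights), Lamb1 1446180_at (0.0034 with quantile normalization, 0.010 with wild types 2 to 4 and mutants 1 to 4), Lamb3 (-0.016 with array weights, -0.00090 without both low-tubule mice) and Lamc1 1423886_at (-0.094 with wild types 2 to 4 and mutants 1 to 4, -0.076 without both low-tubule mice). With 1 mouse left out, changes that crossed 0 ranged from -0.065 to 0.067 for Lama3 1444860_at, -0.14 to 0.10 for Lama4 1424808_at, -0.083 to 0.077 for Lama5 1427009_at, -0.12 to 0.050 for Lama5 1427010_s_at, -0.041 to 0.12 for Lama5 1459614_at, -0.046 to 0.021 for Lamb1 1446180_at, -0.038 to 0.060 for Lamb3 1417812_a_at and -0.034 to 0.085 for Lamc1 1423886_at.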

Other observations

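By deviations from the genotype mean over the 10 mice, the 5 genes of 18192 that followed Lama1 most closely were Phlpp2 (r = 0.95), Mst1 (0.94), Gm40923 (0.93), Ndufc1 (0.92) and Perp (0.91), a description with no test since they were picked as the highest. Of these, Perp, which encodes a desmosome-associated membrane protein, was itself called, at a change of 2.19 (limma adjusted p = 0.000119). Mst1 and Gm40923 have low mean signals of 4.92 and 3.97.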
